A study of Mus musculus with 24 samples.

Results

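The genotype by BAPN interaction asks whether the aorta of ATAD3A knock-in (KI) mice responded to β-aminopropionitrile (BAPN) differently from the aorta of wild type (WT) mice. Members were all 24 of the 24 libraries of the series: 6 of KI mice on BAPN (KI-BAPN), 5 of KI mice on plain water (KI), 7 of WT mice on BAPN (WT-BAPN) and 6 of WT mice on plain water (WT). For each gene the interaction was the log2 change on BAPN in KI (KI-BAPN minus KI) less the log2 change on BAPN in WT (WT-BAPN minus WT). A positive value therefore means a higher change in KI than in WT, whatever the sign of either change. All mice were males, started at 3 weeks of age, and the BAPN groups drank 0.5% (w/v) BAPN for 28 days. Polyadenylated RNA was taken from the whole aorta, from its ascending part to the abdominal bifurcation, and each library is taken as 1 animal. The labels do not say how the knock-in allele was built, which promoter drives it or in which cells it acts, and they give no strain.

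BAPN blocks lysyl oxidase, the enzyme family that cross-links collagen and elastin in the artery wall, and in young mice it leads to aortic aneurysm and dissection. ATAD3A is an AAA ATPase that spans the mitochondrial membranes and is known for its part in mitochondrial nucleoid and inner membrane organisation. An interaction compares changes, not levels. A gene can give one because BAPN moves it in a single genotype or in opposite directions. It can also give one because the genotypes differ on water and not on BAPN. A log2 difference between the genotypes that is the same on water and on BAPN gives none.

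The libraries held 13127645 to 26490651 counts, and mitochondrially encoded genes took 4.24 to 14.8% of them. Contractile smooth muscle genes, which define the aortic media, had a mean log2 CPM (counts scaled to a common library total) of 8.15 to 9.71 in KI-BAPN, 9.02 to 10.2 in KI, 8.65 to 9.75 in WT-BAPN and 8.87 to 10.3 in WT. Library WT 5 stood apart, with skeletal muscle, airway and T cell genes far above the other WT libraries, and KI 1, KI 2 and KI 5 were high in sympathetic neuron genes. KI-BAPN 2, 3 and 6 were high in mesothelium genes, as were libraries of the other groups. Fits without KI-BAPN 2, 3 and 6, given below, were chosen after seeing the data. They take libraries from KI-BAPN only and keep the high libraries of the other groups, so they are not an even check.

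No gene passed the interaction test. Of 14216 genes tested, 0 (0%) had an adjusted p under 0.05 by edgeR's quasi-likelihood test with Benjamini-Hochberg adjustment, and the lowest adjusted p was 0.28. At an unadjusted p under 0.05 there were 2111 genes (14.8%), of which 944 (6.64%) had a positive and 1167 (8.21%) a negative interaction. DESeq2 called 9 of 13930 genes (0.0646%) and limma voom with quality weights called 4 (0.0281%). The DESeq2 calls were Gli3, Slc18a2, Ablim1, Atg4c, Npas2, Btbd9, Omp, Zfp872 and Abraxas2, and the voom calls were Ahsa1, Hspe1, Gli3 and S100a16. Gli3 was the only gene that both called. Omp, Zfp872 and Abraxas2 fall outside the naming rule and are listed because these counts are small.

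The interaction is the least precise of the contrasts. Its standard error had a median of 0.33 log2 over the genes tested, against 0.24 for the change on BAPN in KI and 0.22 for that in WT. The 95% interval of the interaction reached a median of 0.68 log2 to each side of the estimate. For 6507 genes (45.8%) the whole interval lay within 1 log2 unit of 0. For the other genes the interval allowed a difference of more than 1 log2 unit between the genotypes.

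The separate responses had unequal numbers of calls. In WT, BAPN changed 873 genes (6.14%), of which 489 (3.44%) rose and 384 (2.7%) fell, and 3550 (25%) had an unadjusted p under 0.05, 1767 of them (12.4%) higher and 1783 (12.5%) lower. In KI it changed 5 genes (0.0352%) by the same test, of which 1 rose (0.00703%) and 4 fell (0.0281%). There, 1436 (10.1%) had an unadjusted p under 0.05, 695 of them (4.89%) higher and 741 (5.21%) lower. That gap does not itself show a difference between the genotypes, since the interaction was the test of it and called 0 genes. The count in KI moved with single libraries: it was 140 without KI 3, 143 without KI 4, 53 without WT 5 and 0 to 5 without any other library, and DESeq2 called 198. The count in WT was 327 without WT 1, 404 without WT 4, 351 to 503 without WT-BAPN 2, 3, 4, 5 or 6, and 1609 without WT-BAPN 7.

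The 489 genes that rose in WT had a median log2 change of 0.12 in KI and 0.98 in WT, with a median interaction of −0.87. The 384 genes that fell in WT had a median of −0.16 in KI and −0.999 in WT, with a median interaction of 0.75. These genes were picked on the WT libraries, which enter both the WT change and the interaction, so a smaller change in KI is partly built in and is given as a description. Across all 14216 genes the changes in KI and in WT had a Pearson r of 0.29 and a Spearman rho of 0.11, as a description across genes, which are not independent. The 2 changes share no library but share the normalization.

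**Figure D1:**
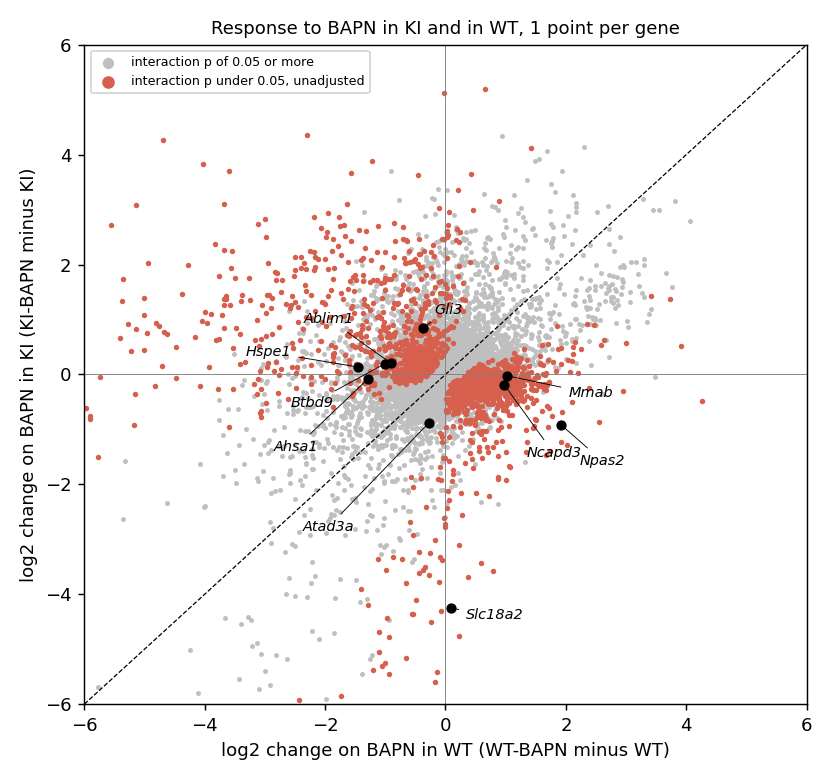
Each point is 1 gene, with its log2 change on BAPN in KI on the vertical axis and in WT on the horizontal axis. The dashed line marks equal changes, red points are the 2111 genes with an unadjusted interaction p under 0.05, and 42 genes lie outside the plotted range. The red points lie off the dashed line by construction, Ablim1, Btbd9, Ahsa1 and Hspe1 lie left of 0 near the horizontal axis, and Slc18a2 lies at −4.25 in KI and 0.10 in WT.

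Most genes with a low interaction p had estimates of opposite sign in the 2 genotypes, which a low p favours by construction. Opposite signs were found for 84.1% of the 2111 genes, against 48.4% of all genes tested. The group that lay farthest from the mean of the other 3 groups was WT on water for 865 of the 2111 genes (41%), WT-BAPN for 587, KI for 432 and KI-BAPN for 227. Over all genes tested, WT was the farthest group for 31.3%. Without WT 5, WT was still the farthest group for 47.7% of 2108 genes at an unadjusted p under 0.05, against 36.5% of all genes.

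The genes named below are Atad3a, 12 with a positive and 12 with a negative interaction, taken in order of unadjusted p among genes of at least 5 CPM in the highest group whose unadjusted p stayed under 0.05 without each library in turn. There were 712 such genes (5.01%), and all are values that did not pass the interaction test at an adjusted p of 0.28 in edgeR's quasi-likelihood test. The order by p chose these genes, so their size is a description. Atad3a itself had 231 to 1038 CPM (median 555) in KI-BAPN, 617 to 1629 in KI, 24.9 to 44.8 (median 32.9) in WT-BAPN and 30.2 to 61.4 (median 39.1) in WT. Every KI library lay above every WT library in both treatments. Its interaction was −0.60 ± 0.39 log2 (SE, 95% interval −1.42 to 0.21) and did not pass (edgeR adjusted p = 0.448).

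Gli3, a zinc finger transcription factor of the Hedgehog pathway, had the lowest interaction p. It had 9.04 to 16.5 CPM (median 11.5) in KI-BAPN, and 8.10, 7.07, 6.96, 6.71 and 4.80 CPM in the 5 KI libraries. It had 7.92 to 13.8 CPM (median 9.55) in WT-BAPN and 12.0 to 15.4 CPM (median 12.9) in WT. Every KI-BAPN library was above every KI library, 5 of the 7 WT-BAPN libraries were below every WT library, and the 2 BAPN groups overlapped. The log2 change on BAPN was 0.85 ± 0.18 (SE) in KI and −0.37 ± 0.16 in WT, neither of which passed. The interaction was 1.21 ± 0.24 log2, with a 95% interval of 0.71 to 1.71, and ran from 1.10 to 1.29 over the fits without 1 library. The adjusted p was 0.28 in edgeR, 0.0116 in DESeq2 and 0.0411 in limma voom. Among the 24 named genes other than Atad3a, Gli3 was the only one whose KI-BAPN and KI ranges did not overlap, which was the case for 0.647% of all genes tested. In the deposited table Gli3 is ENSMUSG00000021318 on chromosome 13, plus strand, from 15637820 to 15904611, and the build of these positions is not stated in the table.

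Ablim1, an actin-binding LIM domain protein, fell on BAPN in WT and did not pass in KI. It had 115 to 175 CPM (median 129) in KI-BAPN, and 108, 104, 116, 125 and 136 CPM in KI. It had 83.0 to 212 CPM (median 149) in WT-BAPN and 253 to 294 CPM (median 268) in WT. All 6 WT libraries lay above all 18 libraries of the other groups, which overlapped one another. The log2 change on BAPN was 0.21 ± 0.18 in KI (adjusted p = 0.712) and −0.91 ± 0.17 in WT (adjusted p = 0.0107, both by edgeR). The interaction was 1.12 ± 0.25 log2, with an adjusted p of 0.28 in edgeR, 0.0209 in DESeq2 and 0.105 in limma voom.

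Btbd9, a BTB domain protein, was likewise highest in WT. Its level was 20.3 to 34.2 CPM (median 24.4) in KI-BAPN, 17.2 to 27.0 in KI, 12.2 to 26.8 (median 15.8) in WT-BAPN and 30.7 to 44.6 (median 34.2) in WT, with only the KI-BAPN range reaching that of WT. It fell in WT by 1.01 ± 0.18 log2 (edgeR adjusted p = 0.0107), its estimate in KI was 0.19 ± 0.20, and the interaction was 1.20 ± 0.27. Gss, which encodes glutathione synthetase, had 20.3 to 27.4 CPM in KI-BAPN, 19.6 to 27.1 in KI, 14.9 to 28.5 in WT-BAPN and 29.0 to 40.9 in WT, with an interaction of 0.84 ± 0.21. The strand setting of the counting is not given, so reads of Gss cannot be told apart from those of genes that overlap it on the other strand, and the same holds for Gli3, Btbd9, Nelfcd, Slc18a2, Syn2, Rab3b, Hspe1, Hspd1, Dbp, Bhlhe41, Prc1, Folr2 and Ddit3. The other positive genes were Eprs, a glutamyl-prolyl tRNA synthetase (0.88 ± 0.23), S100a16, a calcium-binding protein (0.98 ± 0.26), and Ankhd1, an ankyrin repeat protein (0.97 ± 0.26). Eprs, S100a16 and Ankhd1 each fell in WT on BAPN, with edgeR adjusted p of 0.0239, 0.0377 and 0.0277, and none passed in KI.

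The last 2 positive genes were far higher in WT 5 than in the other WT libraries. Sln, which encodes the muscle protein sarcolipin, had 145 CPM in WT 5 and 0.0563 to 0.783 CPM in the other 5 WT libraries. Cd79a, a subunit of the B cell receptor, had 183 CPM in WT 5 and 0.276 to 3.42 CPM in the others. Their interactions of 8.97 ± 2.31 and 6.71 ± 1.79 log2 came down to 3.47 and 1.83 at their lowest over the fits without 1 library. The interaction of Sln also held a positive estimate in KI. Its log2 change on BAPN was 4.27 ± 1.76 in KI and −4.69 ± 1.45 in WT, neither of which passed. KI-BAPN 4 had 16.03 CPM of Sln, the highest level of the KI-BAPN and KI libraries. The other KI-BAPN libraries had 0.119 to 1.27 CPM and the KI libraries 0.0393 to 0.262 CPM. With 1 library so far above the rest, no change of Sln in KI is concluded from that estimate.

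**Figure D2:**
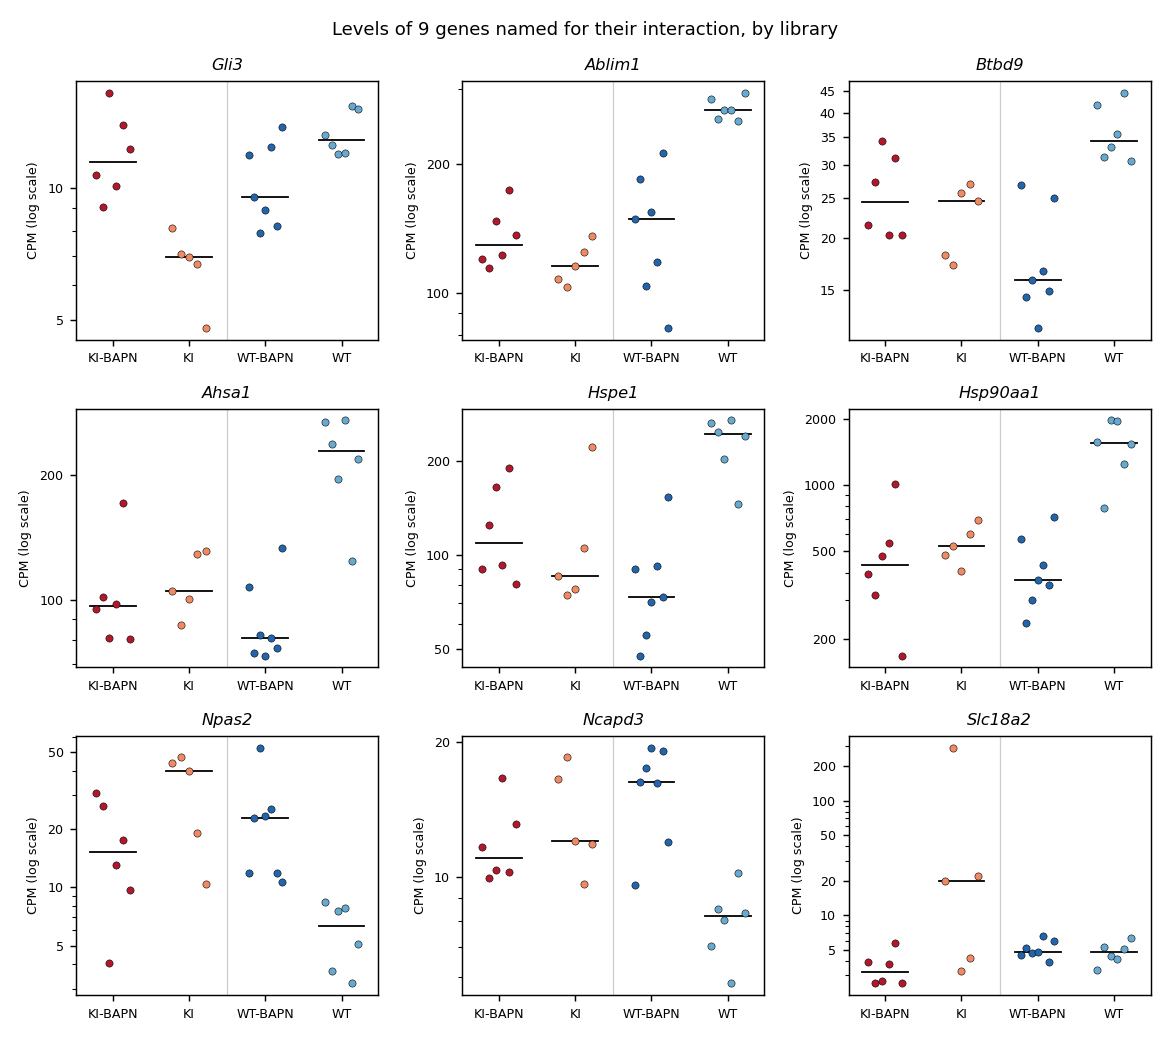
CPM on a log scale for 9 genes, 1 point per library and a bar at the group median, with the groups in the order KI-BAPN, KI, WT-BAPN and WT. For Ablim1 all WT libraries lie above every other library, for Btbd9 they lie above every KI and WT-BAPN library, for Gli3 the 5 KI libraries lie low (4.80 to 8.10 CPM), and for Slc18a2 KI 2 reaches 288 CPM.

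For most of the negative genes WT on water was the low group. Npas2, a clock transcription factor that pairs with Arntl, had 4.06 to 30.7 CPM (median 15.3) in KI-BAPN and 43.9, 46.9, 39.8, 19 and 10.4 CPM in KI. It had 10.7 to 52.4 CPM (median 22.8) in WT-BAPN and 3.20 to 8.39 CPM (median 6.32) in WT. All 6 WT libraries were below every KI and every WT-BAPN library, while KI-BAPN and KI overlapped. Npas2 rose in WT on BAPN by 1.93 ± 0.46 log2 (edgeR adjusted p = 0.0215), its estimate in KI was −0.92 ± 0.47 (adjusted p = 0.521), and the interaction was −2.85 ± 0.66.

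Ncapd3, a condensin II subunit, had 9.95 to 16.6 CPM (median 11.1) in KI-BAPN, 9.67 to 18.5 in KI, 9.61 to 19.4 (median 16.4) in WT-BAPN and 5.80 to 10.2 (median 8.18) in WT. It rose in WT by 0.98 ± 0.19 log2 (edgeR adjusted p = 0.0112) and its interaction was −1.17 ± 0.27. Dsn1, a kinetochore subunit, had 2.37 to 3.39 CPM in KI-BAPN, 2.57 to 3.56 in KI, 2.48 to 7.44 in WT-BAPN and 1.80 to 3.03 in WT, with an interaction of −1.31 ± 0.33. Here WT-BAPN was the group farthest from the rest, and 6 of its 7 libraries lay above every other library. Cep44, a centrosome protein, had an interaction of −0.87 ± 0.22.

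Mmab, an enzyme of cobalamin metabolism in mitochondria, had 6.69 to 15.8 CPM in KI-BAPN, 8.93 to 15.2 in KI, 9.64 to 15.8 in WT-BAPN and 4.52 to 7.72 in WT. It rose in WT by 1.02 ± 0.18 log2 (edgeR adjusted p = 0.0107), against an estimate of −0.02 ± 0.19 in KI, and the interaction was −1.04 ± 0.27. Atg4c, a protease that processes LC3-family proteins of autophagy, had 6.57 to 9.42 CPM in KI-BAPN, 9.12 to 10.6 in KI, 8.12 to 11.7 in WT-BAPN and 4.97 to 7.78 in WT, with an interaction of −0.86 ± 0.20. The ranges of WT lay below those of KI and of WT-BAPN for both genes. Wdr11, Nelfcd, Mospd3 and Tmem80 had interactions of −0.64 to −0.74, the smallest of the 24. Of these, Wdr11 is a WD repeat protein and Nelfcd a subunit of the NELF complex, which pauses RNA polymerase II. Syt17, a synaptotagmin, had −3.12 ± 0.78, with 19.6 CPM in KI 2 and 0.80 to 3.67 CPM in the other KI libraries.

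Over the 24 named genes other than Atad3a, WT was the farthest group for 10 of the 12 positive and 8 of the 12 negative genes. WT-BAPN and WT did not overlap for 11 genes, 6 with WT-BAPN above and 5 with it below, where 2.12% of all genes did not overlap. KI and WT did not overlap for 10 genes, 5 in each direction (2.38% of all genes). KI-BAPN and WT-BAPN overlapped for all 24 (0.218% of all genes did not). These genes were ordered by their interaction p, which uses the same libraries, so the counts describe the shape and support nothing further.

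Slc18a2, the vesicular monoamine transporter, belongs to a separate pattern. It had 2.56 to 5.78 CPM (median 3.22) in KI-BAPN and 19.9, 288, 3.29, 4.26 and 21.9 CPM in KI 1 to KI 5. It had 3.95 to 6.62 CPM (median 4.81) in WT-BAPN and 3.32 to 6.33 CPM (median 4.77) in WT. Only KI 1, KI 2 and KI 5 were high, and the other 21 libraries spanned 2.56 to 6.62 CPM. These 3 libraries also had the highest sympathetic neuron scores (mean log2 CPM of the listed genes), at 4.07, 7.83 and 5.02, against −0.85 and −0.40 in KI 3 and KI 4. The other groups had scores of −0.83 to 1.84 in KI-BAPN, −1.01 to 0.09 in WT-BAPN and −0.87 to 2.64 in WT. All 13 tested sympathetic neuron genes had a negative interaction, 6 of them at an unadjusted p under 0.05 (14.8% of all genes), with a median of −3.01. The median was −1.09 without KI 2, −5.25 without WT 5 and 2.44 without WT 5, KI 1, KI 2 and KI 5, which leaves 2 KI libraries. Slc6a2, the noradrenaline transporter, likewise had −5.41 ± 1.55 log2 with all libraries and 2.44 without those 4. Bulk RNA cannot tell more cells of a type in the sample from more RNA per cell.

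The genes called on BAPN in KI overlap this pattern in part. Rab3b, Syn2, Slc18a2 and Omp fell, and their interactions were −4.25, −2.45, −4.35 and −5.26 log2. Syn2 had 2.61 to 5.90 CPM in KI-BAPN, 3.42 to 7.61 in WT and 9.63, 129, 8.80, 8.14 and 33.4 CPM in KI 1 to KI 5. Every KI library thus lay above every KI-BAPN and WT library for Syn2, not only KI 1, KI 2 and KI 5. Rab3b, a vesicle GTPase, had 0.55 to 1.10 CPM in KI-BAPN and 7.51, 109, 1.41, 0.93 and 21.7 CPM in KI 1 to KI 5. Ces2g, a carboxylesterase, rose, with 23.7 to 34.3 CPM in KI-BAPN, 10.2 to 18.1 in KI, 20.5 to 31.7 in WT-BAPN and 18.9 to 30.3 in WT. For Ces2g the KI libraries on water were the low ones, and its interaction was 0.74 log2 (edgeR adjusted p = 0.28).

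The gene lists gave the same question by function, with 0 members called in each of the 37 lists. Over all genes tested the median interaction was 0.01 log2, and 14.8% had an unadjusted p under 0.05. That share is the one to set beside the counts of each list. Cytosolic heat shock genes, which encode chaperones and their cofactors, had a median interaction of 0.96 over 20 genes, 16 positive and 9 at an unadjusted p under 0.05, all 9 positive. Their median change was −0.32 in KI and −1.20 in WT, where 11 of the 20 fell on BAPN (2.7% of all genes). Ahsa1, which stimulates the ATPase of Hsp90, had 80.7 to 171 CPM (median 96.5) in KI-BAPN, and 105, 86.9, 101, 129 and 132 CPM in KI. It had 73.5 to 134 CPM (median 80.8) in WT-BAPN and 124 to 271 CPM (median 229) in WT. The WT libraries were the highest group, with WT 5 lowest among them, and WT-BAPN 1 and 7 were the highest of their group. The interaction of Ahsa1 was 1.21 ± 0.29 log2, with adjusted p of 0.28 in edgeR, 0.0504 in DESeq2 and 0.0312 in limma voom.

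Hsp90aa1, the inducible Hsp90, had 168 to 1007 CPM (median 435) in KI-BAPN and 408 to 698 in KI, against 235 to 718 (median 371) in WT-BAPN and 784 to 1968 (median 1556) in WT. WT-BAPN lay below WT with no overlap, while KI-BAPN and KI overlapped. Hspb1, a small heat shock protein, had 85.8 to 821 CPM (median 199) in KI-BAPN, 159 to 862 in KI, 148 to 385 (median 203) in WT-BAPN and 624 to 3420 (median 1979) in WT. The interactions were 1.67 ± 0.47 for Hsp90aa1, 2.38 ± 0.71 for Hspb1 and 1.02 ± 0.32 for Fkbp4, a co-chaperone of Hsp90. The median of the list was 1.06 without WT 5 and 1.30 without KI-BAPN 2, 3 and 6, and it was lowest, at 0.58, without KI-BAPN 4.

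Of 17 mitochondrial chaperones and proteases, 5 had an unadjusted p under 0.05, all positive, and the list median was 0.12, or 0.00125 without KI 2 and 0.32 without KI 5. Hspe1, the co-chaperone of the mitochondrial chaperonin Hspd1, had 80.6 to 190 CPM (median 109) in KI-BAPN and 85.6, 74.1, 77.5, 105 and 221 CPM in KI. It had 47.6 to 153 CPM (median 73.5) in WT-BAPN and 146 to 270 CPM (median 244) in WT. Hspe1 fell in WT by 1.46 ± 0.29 log2 (edgeR adjusted p = 0.0121), its estimate in KI was 0.14 ± 0.31, and the interaction was 1.59 ± 0.42. Hspd1 had an interaction of 1.03 ± 0.39, and the 2 genes lie head to head and overlap at their ends. The proteases of the list did not go 1 way. Clpp had an interaction of 0.74 ± 0.28, with an unadjusted edgeR p of 0.0153, and fell in WT (edgeR adjusted p = 0.0372). Lonp1, Clpx, Afg3l2 and Yme1l1, named outside the rule, had interactions between −0.32 and −0.06, and none had an unadjusted p under 0.05.

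The promoters of 3 of the chaperone genes above that fell in WT are shown from RefSeq (GRCm38.p6), as 250 bases before the annotated start, 5′ to 3′ on the gene's strand. Letter patterns of the heat shock element were searched on both strands: a longer one, GAANNTTC followed directly by NNGAA, and its overlapping parts GAANNTTC and TTCNNGAA. Capitals mark matches. The longer pattern was found in 0.466% of all 32851 promoters of the same window, GAANNTTC in 6.69% and TTCNNGAA in 7.17%. Hspe1 lies at chr1:55087898-55088147 on the plus strand, Hspb1 at chr5:135887669-135887918 on the plus strand and Ahsa1 at chr12:87266478-87266727 on the plus strand.
Hspe1: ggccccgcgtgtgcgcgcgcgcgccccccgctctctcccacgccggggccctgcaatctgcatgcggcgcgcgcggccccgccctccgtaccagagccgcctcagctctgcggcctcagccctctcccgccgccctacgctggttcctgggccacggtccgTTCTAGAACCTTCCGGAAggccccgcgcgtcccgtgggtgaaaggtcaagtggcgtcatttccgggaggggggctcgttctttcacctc
Hspb1: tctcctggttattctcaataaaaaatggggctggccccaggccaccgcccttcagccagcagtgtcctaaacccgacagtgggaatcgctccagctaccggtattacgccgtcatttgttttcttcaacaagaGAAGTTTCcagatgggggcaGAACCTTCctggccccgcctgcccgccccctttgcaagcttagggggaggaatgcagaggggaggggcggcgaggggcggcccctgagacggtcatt
Ahsa1: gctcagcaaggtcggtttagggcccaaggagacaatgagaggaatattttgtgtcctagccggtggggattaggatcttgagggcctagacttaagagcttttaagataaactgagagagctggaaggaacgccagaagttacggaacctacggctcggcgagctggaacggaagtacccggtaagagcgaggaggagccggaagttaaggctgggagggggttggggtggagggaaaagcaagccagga
Hspe1 held 2 overlapping matches of the longer pattern, 89 to 77 and 84 to 72 bases before the start. Hspb1 held GAANNTTC 117 to 110 and 97 to 90 bases before the start, Fkbp4, not shown, held it 151 to 144 bases before the start, and Ahsa1 held none of the patterns in this window. A match of letters does not show binding, and none of the libraries measures it.

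Circadian clock genes had a median interaction of 0.77 log2 over 17 genes, with 7 positive and 2 negative at an unadjusted p under 0.05, and a range of 0.61 to 0.86 over the fits without 1 library. Dbp, an output transcription factor of the clock, had 34.1 to 226 CPM (median 68.2) in KI-BAPN and 20.3, 25.1, 28.9, 37.5 and 26.3 CPM in KI. It had 20.8 to 106 CPM (median 58.7) in WT-BAPN and 42.4 to 111 CPM (median 74.6) in WT. KI was the lowest group for Dbp, and KI-BAPN 4 and 6 were the highest libraries of all. Bhlhe41, a repressor of the clock, had 15.8 to 53.9 CPM in KI-BAPN, 9.47 to 18.7 in KI, 21.2 to 34.2 in WT-BAPN and 16.8 to 26.5 in WT. The interactions were 2.13 ± 0.61 for Dbp, 2.08 ± 0.58 for Hlf, which is related to Dbp, and 1.11 ± 0.35 for Bhlhe41, against −2.85 for Npas2 and −1.27 for Arntl. Arntl, the partner of Clock and Npas2, was named after its value was seen. Dbp and Npas2 are known to cycle in opposite phase in mouse tissues, and the labels give no hour of collection.

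**Figure D3:**
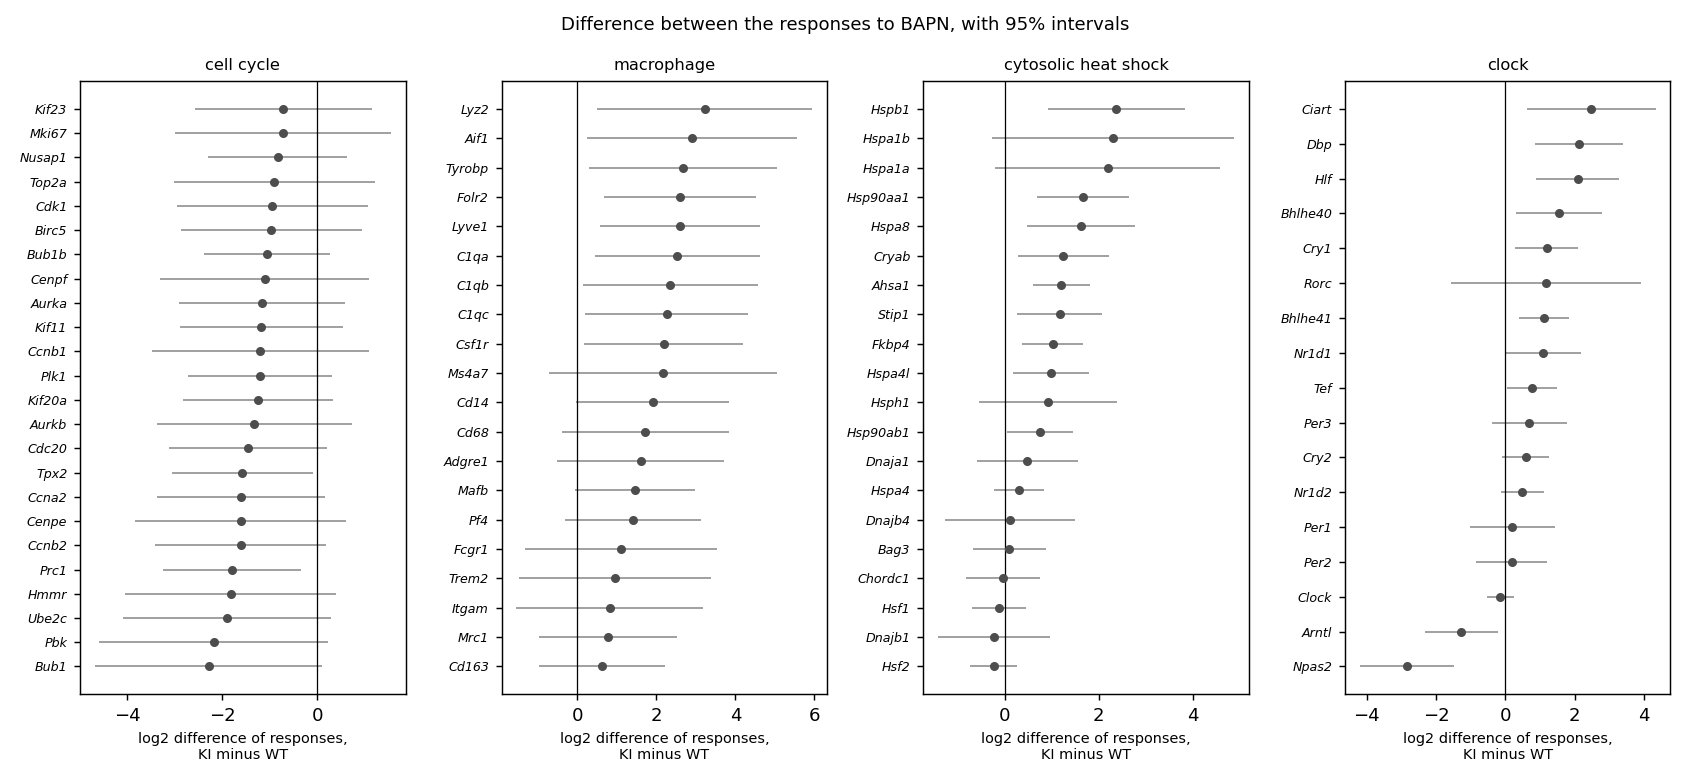
Interaction estimates (points, log2, KI minus WT) with 95% intervals for each tested gene of the cell cycle, macrophage, cytosolic heat shock and clock lists. All 24 cell cycle estimates lie below 0 and all 20 macrophage estimates above it, most with intervals that include 0 in both lists. The clock list holds Npas2 at −2.85 and Dbp at 2.13.

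Cell cycle genes rose in WT on BAPN in 21 of 24 cases (3.44% of all genes rose) and in 0 cases passed in KI (0.0352% of all genes), yet the difference did not pass for any of them. Their median change was 1.28 log2 in KI and 2.58 in WT, and the median interaction was −1.23. An unadjusted p under 0.05 was found for 2 of the 24, a smaller share than the 14.8% of all genes tested. Tpx2, a spindle assembly factor, had 4.23 to 15.2 CPM (median 4.45) in KI-BAPN and 4.64, 4.57, 3.67, 4.76 and 2.14 CPM in KI. It had 4.91 to 64.7 CPM (median 11) in WT-BAPN and 2.80 to 4.75 CPM (median 3.05) in WT. WT-BAPN was the highest and most scattered group, and WT-BAPN 7 was its highest library. Prc1, a protein of the central spindle, had an interaction of −1.79 ± 0.70. Without WT-BAPN 7 the median of the list was −0.63, and without WT 5 it was −1.69. It was −0.43 without WT 5, KI 1, KI 2 and KI 5. KI 1 and KI 2 had cell cycle scores of 1.33 and 1.36, against −0.71, −0.19 and −0.48 in KI 3, KI 4 and KI 5. DNA replication genes had −0.33 over 19 genes, with 1 at an unadjusted p under 0.05, also a smaller share than over all genes. Their median was −0.00399 without WT-BAPN 7 and −0.53 without KI-BAPN 2, 3 and 6.

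Matrix genes, the substrate side of lysyl oxidase, gave intervals that mostly span 0. Collagen chains had a median interaction of −0.52 over 19 genes. At an unadjusted p under 0.05 were 1 positive and 2 negative genes, a share near the 14.8% of all genes tested. The median was −0.27 without KI-BAPN 2, 3 and 6 and −0.35 without KI 1. Col5a2, a chain of type V collagen, had 267 to 670 CPM (median 447) in KI-BAPN, 197 to 551 in KI, 632 to 971 (median 927) in WT-BAPN and 128 to 484 (median 413) in WT. The WT-BAPN libraries lay above every WT library, KI-BAPN and KI overlapped, and the interaction was −0.86 ± 0.39. Col12a1, a fibril-associated collagen, had the positive estimate, 1.55 ± 0.72. Eln, which encodes elastin and is named outside the rule, had 3580 to 16630 CPM in KI-BAPN, 1430 to 15450 in KI, 12450 to 30380 in WT-BAPN and 253 to 9794 in WT. The lowest WT value was that of WT 5, with 3348 to 9794 CPM in the other WT libraries, and the lowest KI value that of KI 5. For Eln, WT-BAPN lay above WT with no overlap, and KI-BAPN and KI overlapped. The interaction was −1.75 ± 0.86 with a 95% interval of −3.53 to 0.03. The elastic fibre list had a median of −0.06 over 22 genes. Matricellular genes had −0.12, matrix proteases and their inhibitors −0.11, contractile smooth muscle genes 0.02 and TGF-beta pathway genes 0.10. Over the fits without 1 library the elastic fibre, matricellular, protease and contractile medians lay on either side of 0.

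Macrophage genes had the largest median interaction of the lists that describe the artery wall, 2.04 log2, and all 20 were positive, 9 at an unadjusted p under 0.05. Their median change on BAPN was 2.25 in KI and 0.21 in WT, and 0 of 20 passed in either genotype. C1qa, a subunit of complement C1q made by macrophages, had 31.7 to 412 CPM (median 54.7) in KI-BAPN and 14.9, 25.9, 12.0, 38.8 and 24.4 CPM in KI. It had 13.8 to 150 CPM (median 37.9) in WT-BAPN and 10.1 to 174 CPM (median 36.2) in WT. All groups overlapped, and KI-BAPN 3 and 6 were the highest libraries of all. These 2 libraries had macrophage scores of 6.08 and 5.48 beside mesothelium scores of 3.98 and 3.35. WT-BAPN 2 and 5 likewise had macrophage scores of 4.97 and 4.95 beside mesothelium scores of 3.39 and 4.03. Without KI-BAPN 2, 3 and 6 the list median was 0.37, and without WT 5, the highest WT library, it was 1.15. Over the fits without 1 library it was highest, at 2.40, without WT-BAPN 5. Folr2 and Lyve1, markers of resident macrophages, had interactions of 2.60 ± 0.92 and 2.60 ± 0.98. KI-BAPN 3 and 6 were again the highest KI-BAPN libraries, at 4.64 and 5.76 CPM for Folr2 and 62.7 and 126 CPM for Lyve1. Folr2 was low throughout, with group medians of 1.19 CPM in KI-BAPN, 0.39 in KI, 0.84 in WT-BAPN and 1.19 in WT.

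Cytokine and adhesion genes had a median interaction of 0.80 over 27 genes, which was 0.19 without WT 5 and −0.07 without KI-BAPN 2, 3 and 6. Interferon response genes had 0.06, which became −0.62 without WT 5 and 1.24 without WT-BAPN 2. Adventitial fibroblast genes had 1.07 over 14 genes, 0.53 without KI-BAPN 2, 3 and 6, and Clec3b led them at 2.05 ± 0.67. Clec3b had 47.2 to 233 CPM in KI-BAPN, 29.4 to 101 in KI, 26.6 to 151 in WT-BAPN and 20.5 to 212 in WT, so all groups overlapped. Endothelial genes had −0.26 over 14 genes, which became 0.17 without KI 5 and 0.26 without WT 5, KI 1, KI 2 and KI 5.

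**Figure D4:**
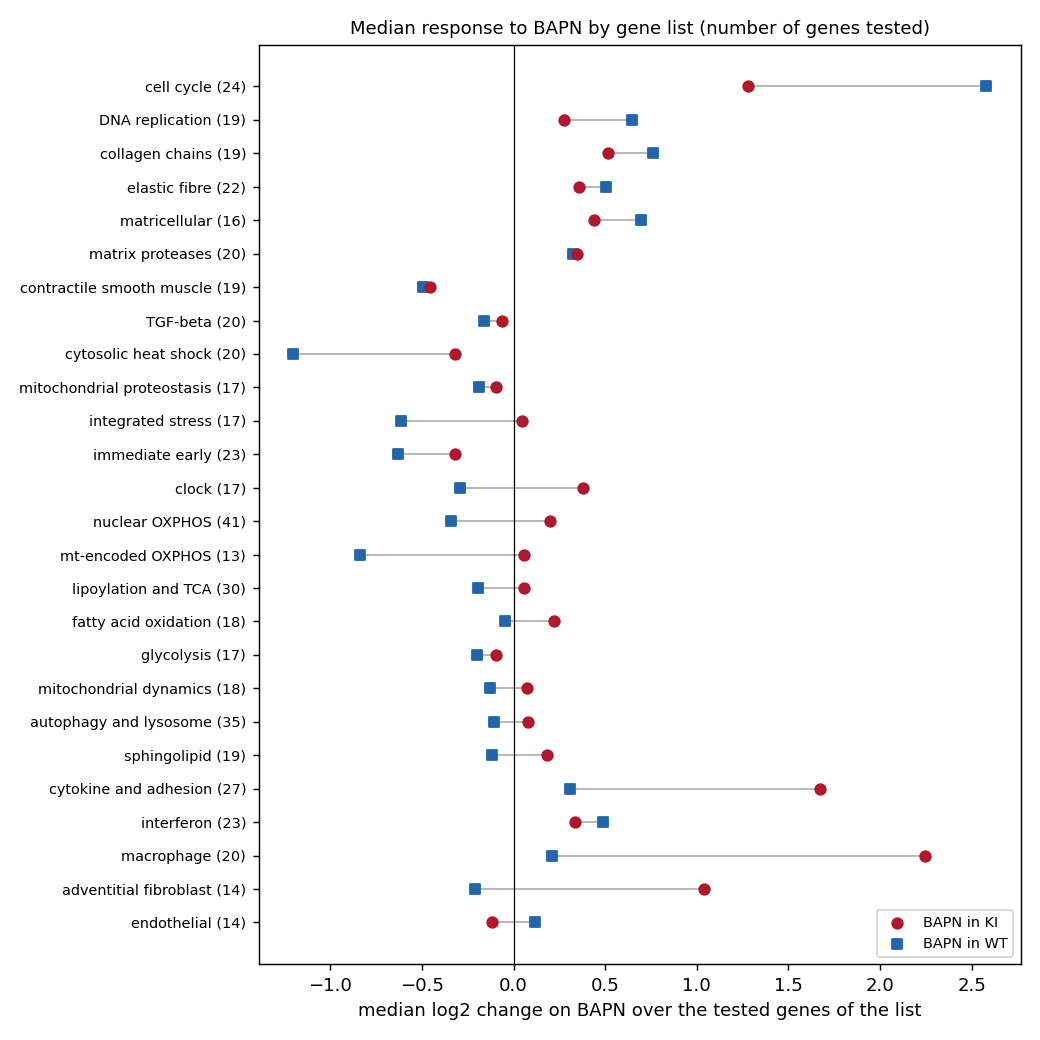
Median log2 change on BAPN over the tested genes of each list, with circles for KI and squares for WT. KI and WT lie apart for macrophage genes (2.25 and 0.21) and cell cycle genes (1.28 and 2.58), and nearly coincide for contractile smooth muscle genes (−0.45 and −0.49).

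The respiratory chain genes had mostly positive estimates. Nuclear encoded subunits had a median of 0.52 over 41 genes, 40 of them positive. The 5 of 41 at an unadjusted p under 0.05 are a smaller share than the 14.8% of all genes tested. Mitochondrially encoded subunits had 0.88 over 13 genes, all positive and 3 at an unadjusted p under 0.05, with a median change of 0.05 in KI and −0.84 in WT. mt-Co2, a subunit of cytochrome c oxidase, had 222 to 1818 CPM (median 916) in KI-BAPN, 391 to 1039 in KI, 160 to 901 (median 353) in WT-BAPN and 435 to 1432 (median 817) in WT. All 4 groups overlapped, and the interaction was 1.60 ± 0.70. The nuclear median was 0.35 without KI-BAPN 3 and 0.90 without KI 5. Without KI-BAPN 2, 3 and 6 the median was −0.01 for the nuclear subunits and 0.81 for the mitochondrial ones.

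**Figure D5:**
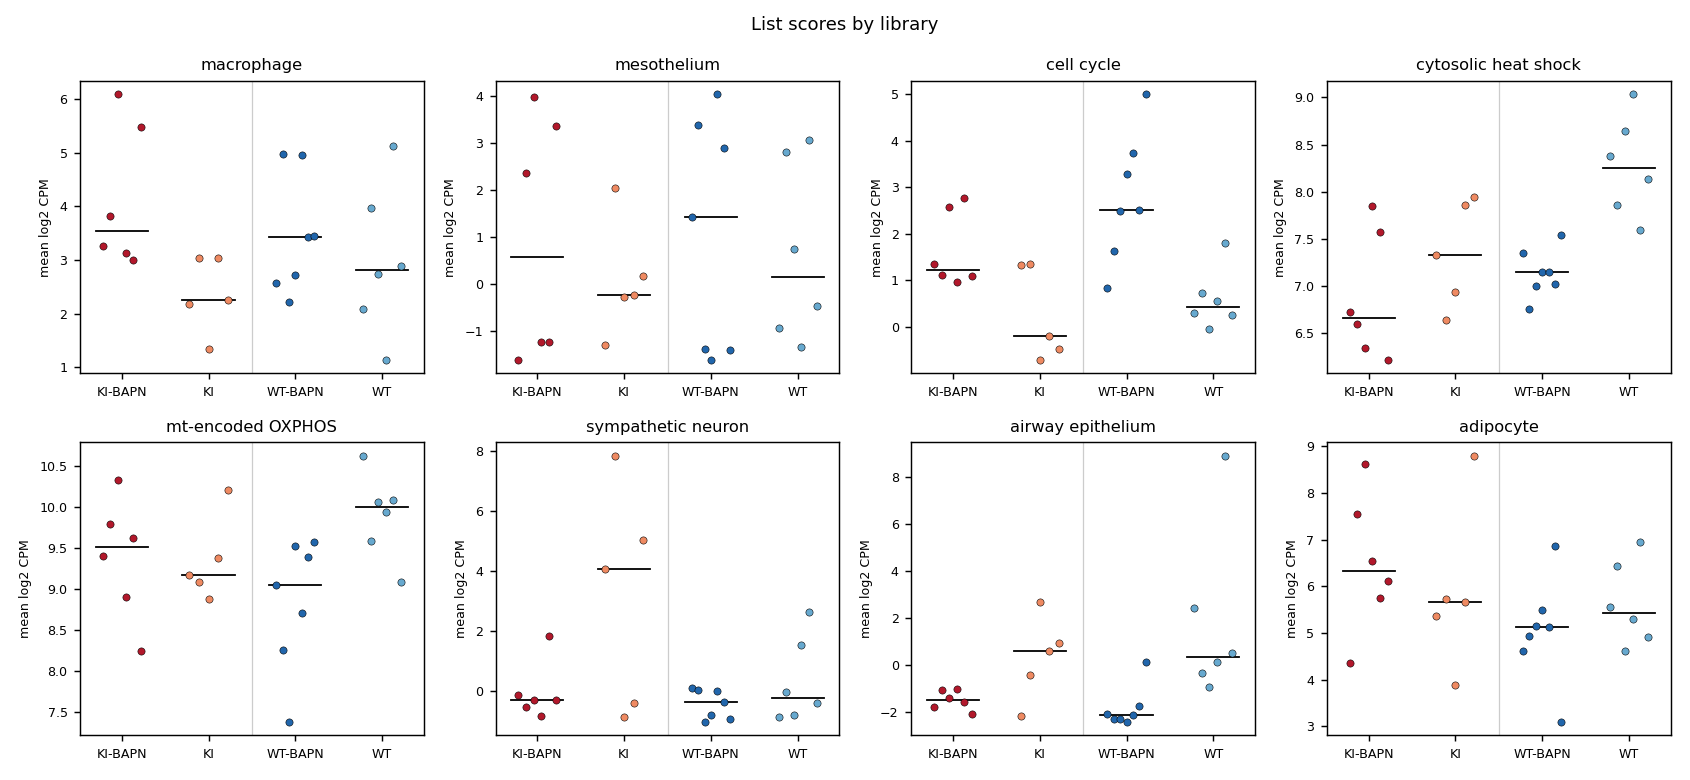
List scores (mean log2 CPM of the listed genes) by library, with a bar at the group median, for 8 lists. KI 1, KI 2 and KI 5 are the high points for sympathetic neuron genes (4.07, 7.83 and 5.02), WT 5 is the high point for airway epithelium genes (8.91), and the WT group is highest for cytosolic heat shock genes (7.60 to 9.03).

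The other metabolic and stress lists lay nearer to the background. Lipoylation and tricarboxylic acid cycle genes had a median of 0.26 with 0 of 30 at an unadjusted p under 0.05. Fatty acid oxidation genes had 0.29, with 0.05 without KI-BAPN 3 and 0.69 without KI 5. Mitochondrial dynamics and cristae genes had 0.18 and glycolysis genes 0.10. Without KI-BAPN 2, 3 and 6 the median was −0.11 for lipoylation and tricarboxylic acid cycle genes, −0.29 for fatty acid oxidation, −0.02 for mitochondrial dynamics and cristae and 0.02 for glycolysis. Autophagy and lysosome genes had 0.31 over 35 genes, or 0.17 without KI-BAPN 2, 3 and 6. An unadjusted p under 0.05 was found for 4, all positive, a smaller share than the 14.8% of all genes tested. Map1lc3a, an LC3 protein of the autophagosome, had 123 to 332 CPM (median 216) in KI-BAPN, 141 to 226 in KI, 82.4 to 222 (median 114) in WT-BAPN and 188 to 316 (median 235) in WT. It fell in WT by 0.84 ± 0.24 log2 (edgeR adjusted p = 0.0383), with an estimate of 0.20 ± 0.26 in KI and an interaction of 1.04 ± 0.35. Sphingolipid genes had 0.33 over 19 genes, or 0.17 without WT 5 and 0.12 without KI-BAPN 2, 3 and 6, with S1pr2, a sphingosine-1-phosphate receptor, at 1.29 ± 0.42. Integrated stress response genes had 0.11 over 17 genes, which became −0.22 without KI-BAPN 2, 3 and 6 and −0.18 without KI-BAPN 5. Ddit3, its transcription factor CHOP, had 0.97 ± 0.28 with 16.2 to 31.8 CPM in KI-BAPN, 16.1 to 26.4 in KI, 14.2 to 28.2 in WT-BAPN and 22.4 to 58.3 in WT. Immediate early genes had 0.24, with 0.06 without KI-BAPN 4 and 0.67 without KI-BAPN 2, 3 and 6.

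The remaining lists mark cells that a dissected aorta can carry along. Skeletal muscle genes had a median interaction of 5.42, airway epithelium 5.49, B cell 6.08 and T cell 4.02 log2, and without WT 5 these were −0.23, −0.34, 1.47 and 0.21. Schwann cell genes had 0.91, and −0.67 without WT 5. Mesothelium genes had 1.70, and −3.54 without KI-BAPN 2, 3 and 6. Those libraries were picked for high values of this list, so the fall was built in. WT-BAPN 2, 5 and 6, with mesothelium scores of 3.39, 4.03 and 2.89, stayed in that fit. Adipocyte genes had 0.35, which became 2.23 without KI 5, −0.32 without KI-BAPN 3 and −1.22 without KI-BAPN 2, 3 and 6. Cardiac muscle genes had 1.84 over 11 tested genes, 0.70 without KI-BAPN 4 and 3.09 without WT-BAPN 5. Neutrophil genes had 1.15 over 3 tested genes and −0.16 without KI-BAPN 2, 3 and 6. Erythroid genes had 0.71 over 5 tested genes, −0.27 without KI-BAPN 3 and −1.01 without KI-BAPN 2, 3 and 6.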

How the data were processed

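The authors deposited a table of read counts per gene for 24 libraries, not normalized. Per the submitters' processing notes reads passed through Trim Galore, FastQC and HISAT2 (GRCm38, also written mm10), and DESeq2 was used. Neither counter nor strand setting is given in the sources used here. Of 21959 genes, 2577 had no read, and 514 had the start and end of the GENCODE M21 annotation of GRCm38, so the build of the table's positions is open. Each count column carries a code that 1 sample's labels hold, and 0 columns were left unmatched. No 2 libraries were alike within sampling noise (lowest chi-square per degree of freedom 25.9), and each library is taken as 1 animal from the labels.

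The deposited counts of all 24 libraries entered 1 fit in edgeR 4.0.16 (R 4.3.3), with a mean for each group (TMM factors, filterByExpr by group, robust quasi-likelihood F tests). Of the genes, 14216 were tested. Benjamini-Hochberg adjusted p under 0.05 was called, with no minimum fold. SE is the log2 estimate over the root of F, and CPM uses the TMM factors. Log2 CPM in scores uses a prior count of 2. The fit was tested on simulated data. DESeq2 1.42.0 and limma 3.58.1 were alternatives, with other size factors, filters, thresholds, a replicate block, each library left out and 2 sets of libraries left out.

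The members, the 37 gene lists and the rules were chosen with earlier results of these data known. The naming rule takes Atad3a, then up to 12 genes per direction, then up to 4 members with the smallest interaction p of each list described. Called genes come first, by size. As 0 were called, genes with at least 5 CPM in the highest group and an unadjusted p under 0.05 with 1 sign in all 24 fits without 1 library were taken in order of p. Of 675 listed genes, 28 were not tested. 1 further gene that the rule names is not reported here. Figures were drawn with matplotlib 3.10.9.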

Additional observations from a re-analysis of the deposited data

Results flagged for a closer look

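A sample was singled out where the gap to its nearest neighbour was large for the range of its group. Chance does this in about 1 in 20 groups. It did so for 4 of 100 groups of gene values and 6 of 48 groups of scores. No explanation was tested.

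In KI-BAPN, Ahsa1 had 171 CPM in KI-BAPN 5 and 80.7 to 102 CPM in the other 5 libraries. The sympathetic neuron score of the same library was 1.84, against −0.83 to −0.13 in the others. In WT-BAPN, the airway epithelium score was 0.136 in WT-BAPN 7 and −2.41 to −1.74 in the others.

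The other 7 were in WT 5. Sln had 145 CPM there and 0.0563 to 0.783 CPM in the other WT libraries. Cd79a had 183 CPM, against 0.276 to 3.42. Eprs had 186 CPM, against 119 to 135. Scores in WT 5 were 9.46 for skeletal muscle (0.29 to 1.30 in the others), 8.91 for airway epithelium (−0.93 to 2.41), 5.05 for Schwann cell (1.50 to 2.47) and 4.99 for T cell genes (−2.27 to 0.39).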

How the results depend on the processing

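The interaction count was 0 under other size factors, both other filters, both other thresholds, no robust estimation and both sets of libraries left out, as well as in all 24 fits without 1 library (0 to 0, with 1483 to 2911 genes at an unadjusted p under 0.05). The exceptions were 9 with DESeq2 and 4 with limma voom. The count for BAPN in KI was 198 with DESeq2, 0 with voom, 0 with no filter, 0 with at least 5 CPM in 5 libraries, 0 at an adjusted p of 0.01, 3 without WT 5, KI 1, KI 2 and KI 5, and 0 without KI-BAPN 2, 3 and 6, an alternative chosen after seeing the data. Without 1 library it ran from 0 to 143. The count for BAPN in WT was 1493 with DESeq2, 4234 with voom, 1524 without the 4 libraries, 1831 at an adjusted p of 0.10 and 6 at 0.01. Without 1 library it ran from 327 to 1609. The cause was not tested. Of the named genes, Slc6a2 changed sign, to 2.44 log2 without the 4 libraries, which leaves 2 KI libraries. That estimate had an unadjusted edgeR p of 0.674, so it cannot be told from 0. Among list medians, 28 of the values under alternatives moved by more than the spread used and 1008 did not. On the CPM scale, also chosen after seeing the data, all 81 named genes kept their direction. The intervals give the precision, and the parts of depth and of group size in it were not tested.

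The groups share replicate numbers, but same-numbered libraries did not deviate together: over 33 such pairs r ran from −0.521 to 0.571 with a median of 0.07, 16 were over 0.1, and 4 of 24 libraries correlated best with their own number. With the number as a block the interaction count was 0 (2520 at an unadjusted p under 0.05), that for BAPN in KI 0 and that for BAPN in WT 1024.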
